A study of Mus musculus with 15 samples.

Results

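The natriuretic peptide receptor genes Npr1, Npr2 and Npr3 were followed across RNA sequencing libraries of inguinal white adipose tissue, the subcutaneous fat pad of the mouse groin. They are 3 of the 24015 genes counted, taken from the table by symbol, and all 3 were among the 15288 genes with enough counts to be tested. The genes were chosen by a measured value, the lower Npr3 count in young mice given CL, which was known beforehand. Values of the receptors in that comparison, and in the age by CL difference that contains it, are therefore given as a description without a test. It is not recorded whether the values of aged mice also entered that choice, so the p-values of Npr3 and of ratios that contain it describe the fit and support nothing further.

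All mice were C57BL/6, were kept at thermoneutrality for 2 weeks and were then injected intraperitoneally for 5 days with CL or vehicle. The 4 groups were 2-month-old mice on vehicle (Young_Ctrl, n = 4), 2-month-old mice on CL (Young_CL, n = 4), 12-month-old mice on vehicle (Old_Ctrl, n = 3) and 12-month-old mice on CL (Old_CL, n = 4). Replicate 2 of Old_Ctrl was not analysed here. The labels write CL out as cardiolipin, but the same 2 letters commonly stand for an agonist of β-adrenergic receptors, and the identity of the compound is left unsettled. Nothing in the labels ties each library to its own animal. The p-values thus reflect the spread between these samples only, which may be technical.

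The total of gene counts was 7066687 to 14796440 in Young_Ctrl, 6115542 to 30621448 in Young_CL, 6495373 to 51577001 in Old_Ctrl, and for Old_CL it was 15723586 to 40235461. Each receptor had at least 322 counts in every library. All 10 adipocyte markers were detected in each group. The 12 skeletal muscle markers summed to 2766 to 8339.5 CPM (counts of a gene per 1000000 counts of the library) in 5 libraries, namely Young_CL 1, 2 and 3, Old_Ctrl 3 and Old_CL 3, and to 51.6 to 418 CPM in the others. Young_Ctrl 1 stood apart from its group, with log2 ratios to the other 3 libraries that had a robust SD of 0.370 to 0.747. Old_CL 1, 2 and 4 were closer to each other (0.0636 to 0.0933) than any other pair within a group (0.116 or more), and were counted as 3 samples, as labelled. They differed by more than counting noise, as separate preparations of 1 sample also could.

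Natriuretic peptides are circulating and local hormones that act on fat, blood vessels and kidney through cyclic GMP. Npr1 encodes the receptor guanylyl cyclase for the atrial and brain peptides, and Npr2 encodes the related cyclase for the C-type peptide. Npr3 encodes the clearance receptor, which has no cyclase domain, binds all of these peptides and removes them by internalisation, and can also couple to inhibitory G proteins. In fat cells, cyclic GMP made by NPR1 activates protein kinase G, which drives lipolysis and thermogenic genes, so the balance of Npr1 to Npr3 is often used as a measure of how open adipose tissue is to these peptides.

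The 3 genes have start regions of different composition. The 250 bases before the RefSeq start of each gene are printed because Npr3 differed with CL on a scale that the other receptors did not, and a reader can compare the letters. They come from the RefSeq table of GRCm38.p6, whereas the reads were aligned to mm9, and all 3 genes matched by symbol. Capitals mark the letters TGACG, the core of the cyclic AMP response element, and GGGCGG, the GC box, on either strand, 5′ to 3′ on the strand of the gene.
Npr1: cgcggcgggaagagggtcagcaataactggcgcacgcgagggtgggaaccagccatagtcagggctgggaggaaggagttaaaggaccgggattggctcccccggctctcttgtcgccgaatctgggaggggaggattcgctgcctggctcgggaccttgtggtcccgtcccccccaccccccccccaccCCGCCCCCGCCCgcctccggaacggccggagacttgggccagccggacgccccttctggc
Npr2: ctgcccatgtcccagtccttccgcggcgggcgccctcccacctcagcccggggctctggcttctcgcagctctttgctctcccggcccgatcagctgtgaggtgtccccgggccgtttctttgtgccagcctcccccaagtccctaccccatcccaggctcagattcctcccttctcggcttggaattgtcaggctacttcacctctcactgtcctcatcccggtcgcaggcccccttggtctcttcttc
Npr3: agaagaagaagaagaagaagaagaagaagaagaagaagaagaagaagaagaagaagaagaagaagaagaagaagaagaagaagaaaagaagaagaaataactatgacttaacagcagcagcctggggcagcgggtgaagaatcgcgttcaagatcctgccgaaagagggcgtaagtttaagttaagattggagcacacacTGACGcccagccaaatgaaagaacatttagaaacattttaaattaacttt
The Npr1 sequence lies at chr3:90465867-90466116 on the minus strand, has 70.4% G and C and 21 CpG, and holds 2 adjacent GC boxes on the opposite strand. The Npr2 sequence lies at chr4:43631685-43631934 on the plus strand, with 64.4% G and C and 13 CpG, and holds neither motif. The Npr3 sequence lies at chr15:11907372-11907621 on the minus strand, has 38.8% G and C and 6 CpG, starts with a long run of AAG repeats and holds 1 TGACG whose first letter is 50 bases before the start. Over 32841 windows of the same length the median content of G and C was 52.4%, and 17.8% held TGACG and 32.7% held GGGCGG. The full element TGACGTCA (1.55% of windows), the nuclear receptor motif AGGTCA (14.0%) and TATAAA (12.4%), searched on both strands, were in none of the 3. These motifs were chosen after the values were seen, and a match is a description of letters only.

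Npr3 was the receptor that differed most with CL, and its direction was opposite at the 2 ages. In young mice it was at 471, 272, 321 and 255 CPM in Young_Ctrl 1, 2, 3 and 4, and at 69.4, 63.7, 84.7 and 29.2 CPM in Young_CL 1, 2, 3 and 4. Every young CL library was below every young vehicle library. The means were 329 ± 98.2 CPM with vehicle and 61.8 ± 23.4 CPM with CL (SD, n = 4 and 4), and the fitted log2 difference was -2.42 (SE 0.28, 95% confidence interval -3.01 to -1.83), a 5.35-fold lower level with CL. Among the 3 receptors only Npr3 had groups without overlap here, as did 34.1% of all tested genes, and nothing is read from that count because this comparison chose the gene. The lowest library, Young_CL 4, is the 1 young CL library with few muscle transcripts, and against it alone the fitted difference was -3.49. In tissue RNA, fewer cells that carry a transcript and less transcript per cell cannot be told apart.

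In aged mice Npr3 rose with CL. It was at 363, 306 and 276 CPM in Old_Ctrl 1, 3 and 4, and at 665, 763, 977 and 662 CPM in Old_CL 1, 2, 3 and 4. Every aged CL library was above every aged vehicle library, and above every young library of either treatment. The mean went from 315 ± 44.2 CPM (SD, n = 3) to 767 ± 148 CPM (SD, n = 4), a 2.43-fold rise (edgeR log2 change 1.28, SE 0.29, adjusted p = 0.0026). Npr3 was the only receptor called in this comparison, in which 45.2% of all tested genes were called. The highest library was Old_CL 3, which is rich in muscle transcripts. Without it the change was 1.14 (edgeR adjusted p = 0.0083), and without all 5 muscle-rich libraries it was 1.12 (edgeR adjusted p = 0.0070).

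**Figure D1:**
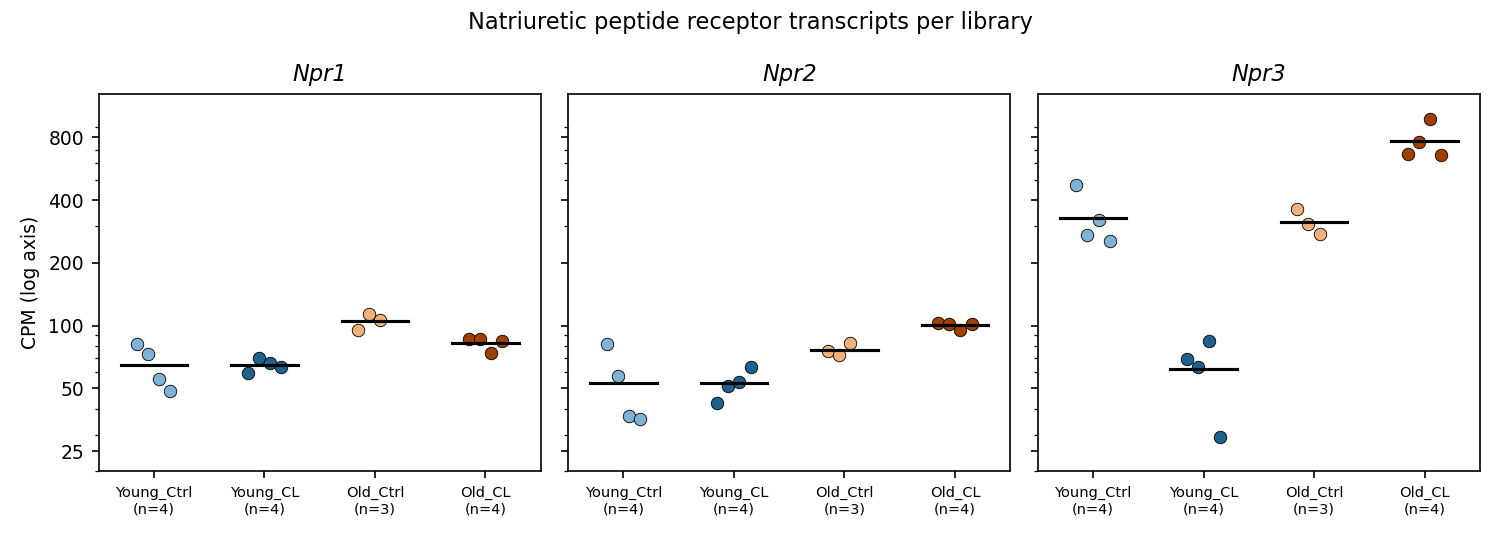
Level of Npr1, Npr2 and Npr3 in each library in CPM on a log axis, by group (n = 4, 4, 3 and 4), with a line at the group mean. Npr3 runs from 29.2 to 84.7 CPM in Young_CL and from 662 to 977 CPM in Old_CL, while all Npr1 and Npr2 values lie between 35.7 and 114 CPM.

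The order of the Npr3 levels was therefore Old_CL, Young_Ctrl, Old_Ctrl and Young_CL. The vehicle groups in the middle overlapped, and the other neighbours in this order did not. With vehicle, aged and young mice differed by -0.06 in log2 (SE 0.28, edgeR adjusted p = 0.89), with a 95% confidence interval of -0.67 to 0.54. A difference of up to about that size at baseline was not detectable with these libraries. With CL, aged mice had 12.4-fold more Npr3 than young mice (fitted log2 difference 3.64, SE 0.29), given without a p because it rests on the Young_CL values that chose the genes. The comparison under vehicle shares the Young_Ctrl libraries with the young CL comparison and is not independent of it.

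The CL change of Npr3 in aged mice minus that in young mice was 3.70 in log2 (SE 0.41, 95% confidence interval 2.84 to 4.56). It joins changes of opposite sign and is given without a test. Of 15288 tested genes, 6 had a larger positive difference. The difference contains the young comparison that chose the genes, so nothing is read from this rank or from the counts that follow. Genes whose libraries were all lower with CL in young mice and all higher with CL in aged mice numbered 110, or 0.720% of those tested. A fitted fall of at least 2-fold in young mice together with a fitted rise of at least 2-fold in aged mice was found for 16 genes, Npr3 included. Npr3 and Prelp, a proteoglycan gene of the extracellular matrix named here after its values were seen, had the most counts of these, with an average log2 CPM of 8.54 and 9.67, not scaled for length. Prelp had fitted log2 differences of -1.12 in young and 1.09 in aged mice. The next by counts, the transporter gene Slc6a13, had an average log2 CPM of 4.81.

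**Figure D2:**
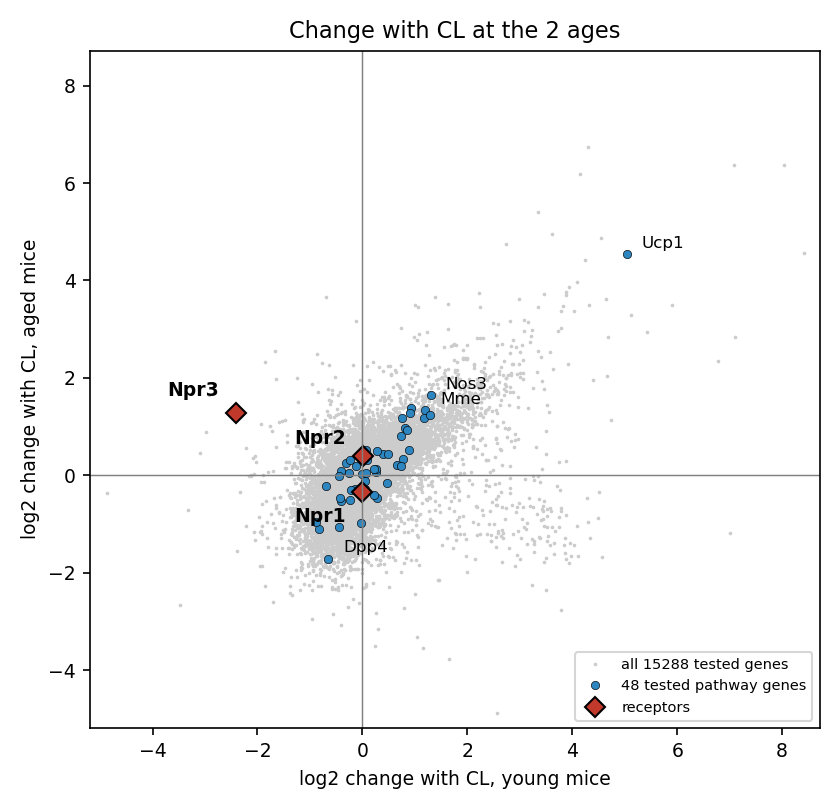
Fitted log2 change with CL in young mice (horizontal axis) against aged mice (vertical axis) for all 15288 tested genes (grey), 48 tested pathway genes (blue) and the 3 receptors (red diamonds). Npr3 lies at -2.42 and 1.28 in the upper left, while Ucp1 lies at 5.04 and 4.54.

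Npr1, the cyclase receptor for the atrial peptide, was higher in aged than in young mice under either treatment, and its young groups overlapped. It was at 81.9, 73.3, 55.8 and 48.4 CPM in Young_Ctrl 1, 2, 3 and 4, and at 59.2, 70.0, 66.4 and 63.3 CPM in Young_CL 1, 2, 3 and 4. All young CL values lay within the range of the young vehicle values. The means were 64.9 ± 15.5 and 64.7 ± 4.57 CPM (SD, n = 4 and 4), with a fitted log2 difference of 0 (SE 0.14, 95% confidence interval -0.29 to 0.29).

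In aged mice Npr1 was at 95.1, 114 and 107 CPM in Old_Ctrl 1, 3 and 4, and at 86.5, 86.3, 74.1 and 84.8 CPM in Old_CL 1, 2, 3 and 4. Every aged CL library was below every aged vehicle library, yet the difference did not pass the test (edgeR log2 change -0.35, SE 0.14, adjusted p = 0.058). All 3 receptors had groups without overlap in this comparison, as did 52.8% of all tested genes. The adjusted p of Npr1 ran from 0.0051 to 0.33 over the other settings tried. With vehicle, Npr1 was higher in aged mice, 106 ± 9.70 against 64.9 ± 15.5 CPM (SD, n = 3 and 4), and this passed (edgeR log2 difference 0.71, SE 0.14, adjusted p = 0.0035). It was the only receptor called with age under vehicle, where 27.2% of all tested genes were called. It was also the only one without overlap, which held for 27.1% of tested genes.

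With CL, Npr1 was again higher in aged mice, 82.9 ± 5.94 against 64.7 ± 4.57 CPM (SD, n = 4 and 4), by a smaller amount (edgeR log2 difference 0.36, SE 0.14, adjusted p = 0.046). Npr1 and Npr2 were both called higher in aged mice under CL, where 40.0% of all tested genes were called and 20.5% were called higher. Both were also higher without overlap, which held for 23.5% of tested genes (44.9% in either direction). Npr3 is left out of these counts. The call of Npr1 was lost when any 1 CL library other than Old_CL 3 was left out (edgeR adjusted p between 0.053 and 0.12). It was lost with Old_CL 1, 2 and 4 summed to 1 sample (0.31, edgeR adjusted p = 0.22). Without the 5 muscle-rich libraries, which leaves 1 young CL library, the difference was 0.41 (edgeR adjusted p = 0.29). In the order of Npr1 levels, Old_Ctrl was above Old_CL without overlap, and Old_CL, Young_Ctrl and Young_CL each overlapped the next.

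Npr2, the cyclase receptor for the C-type peptide, was highest in aged mice given CL. It was at 82.1, 57.1, 36.7 and 35.7 CPM in Young_Ctrl 1, 2, 3 and 4, and at 42.8, 51.6, 53.4 and 63.6 CPM in Young_CL 1, 2, 3 and 4. The young groups overlapped, with means of 52.9 ± 21.8 and 52.8 ± 8.54 CPM (SD, n = 4 and 4) and a fitted log2 difference of 0.01 (SE 0.21, 95% confidence interval -0.43 to 0.45). Young_Ctrl 1 was the highest young library for Npr1, Npr2 and Npr3 alike.

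In aged mice Npr2 was at 75.4, 72.4 and 82.7 CPM in Old_Ctrl 1, 3 and 4, and at 103, 102, 95.1 and 102 CPM in Old_CL 1, 2, 3 and 4. The CL libraries were all higher, but the difference did not pass the test (edgeR log2 change 0.39, SE 0.22, adjusted p = 0.16). Fitted on these 2 groups alone, which leaves out the young libraries, it was 0.35 (edgeR adjusted p = 0.0033), and over all alternatives the adjusted p ran up to 0.34. With CL, Npr2 was 1.91-fold higher in aged than in young mice, 101 ± 3.64 against 52.8 ± 8.54 CPM (SD, n = 4 and 4, edgeR log2 difference 0.93, SE 0.21, adjusted p = 0.0025). Without the 5 muscle-rich libraries this was 0.65 (edgeR adjusted p = 0.27, the highest of the alternatives, which started at 4.7e-05).

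With vehicle the age difference of Npr2 was 0.55 in log2 (SE 0.22, edgeR adjusted p = 0.074), and the groups overlapped through Young_Ctrl 1. Without Young_Ctrl 1 it was 0.84 (edgeR adjusted p = 0.0015, the lowest of the alternatives, which reached 0.20). In the order of Npr2 levels, Old_CL was above Old_Ctrl without overlap, and Old_Ctrl, Young_Ctrl and Young_CL each overlapped the next.

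**Figure D3:**
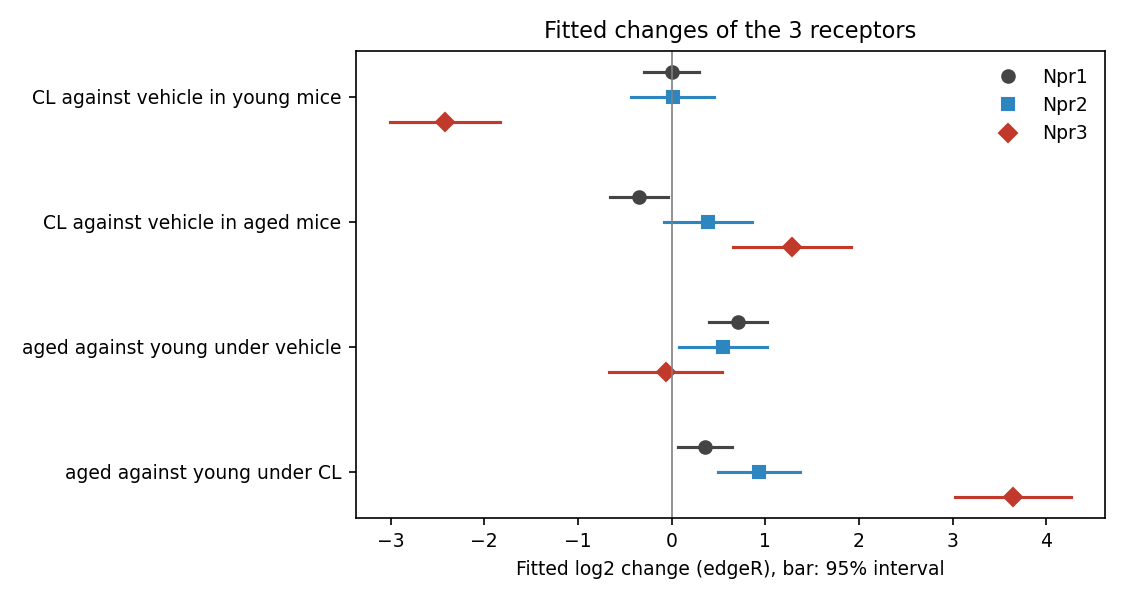
Fitted log2 change of Npr1, Npr2 and Npr3 in the 4 pairwise comparisons, with bars for the 95% confidence interval. Npr3 has the largest changes, at -2.42, 1.28 and 3.64, and is near 0 for age under vehicle; in young mice the intervals of Npr1 and Npr2 contain 0.

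The ratio of Npr1 to Npr3 counts needs no library size. It was 0.174, 0.270, 0.174 and 0.190 in Young_Ctrl 1, 2, 3 and 4, and 0.853, 1.10, 0.785 and 2.16 in Young_CL 1, 2, 3 and 4. These are ratios of raw counts, so genes of different length are not compared in level by them. All young CL libraries were above all young vehicle libraries. The geometric mean went from 0.199 to 1.12, a 5.66-fold higher ratio with CL, given without a test.

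In aged mice the ratio was 0.262, 0.373 and 0.389 in Old_Ctrl 1, 3 and 4, against 0.130, 0.113, 0.0758 and 0.128 in Old_CL 1, 2, 3 and 4. Every aged CL library was lower than every other library of the study. The geometric mean was 0.336 with vehicle and 0.109 with CL, 3.08-fold lower (log2 difference -1.62, exact two-sided permutation p = 0.057, which is the smallest that 4 against 3 libraries allow, adjusted p = 0.086). Under CL the ratio was 10.3-fold lower in aged than in young mice (log2 difference -3.36), given without a p because the Young_CL counts of Npr3 are those that chose the genes. With vehicle the groups overlapped, with a log2 difference of 0.76 (exact permutation p = 0.11, adjusted p = 0.13). That comparison shares the young vehicle libraries with the one that chose the genes. Adjustment was over 9 tests, of 3 ratios in 3 comparisons. The 9 include the ratios with Npr3 for age under CL, whose p is not given. None of the others passed 0.05, and with so few libraries none could.

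The other ratios show how far each receptor entered this balance. Npr2 to Npr3 followed the same course, with geometric means of 0.156 in Young_Ctrl, 0.909 in Young_CL, 0.245 in Old_Ctrl and 0.133 in Old_CL. Its log2 difference with CL was 2.55 in young mice, without a test, and -0.88 in aged mice (exact permutation p = 0.057, adjusted p = 0.086). It was -2.78 for age under CL, without a p for the same reason, and 0.65 for age under vehicle (exact permutation p = 0.11, adjusted p = 0.13).

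The Npr1 to Npr2 ratio separated the aged groups without overlap. It was 1.26, 1.58 and 1.30 in Old_Ctrl 1, 3 and 4, against 0.841, 0.844, 0.779 and 0.832 in Old_CL 1, 2, 3 and 4. Npr2 counts exceeded Npr1 counts in all 4 aged CL libraries and in no aged vehicle library (log2 difference -0.74, exact permutation p = 0.057, adjusted p = 0.086). In young mice the ratio ran from 0.998 to 1.52 with vehicle and from 0.995 to 1.39 with CL. Age under CL gave -0.59 (exact permutation p = 0.029, the smallest that 4 against 4 allow, adjusted p = 0.086) and age under vehicle 0.11 (exact permutation p = 0.69, adjusted p = 0.69).

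**Figure D4:**
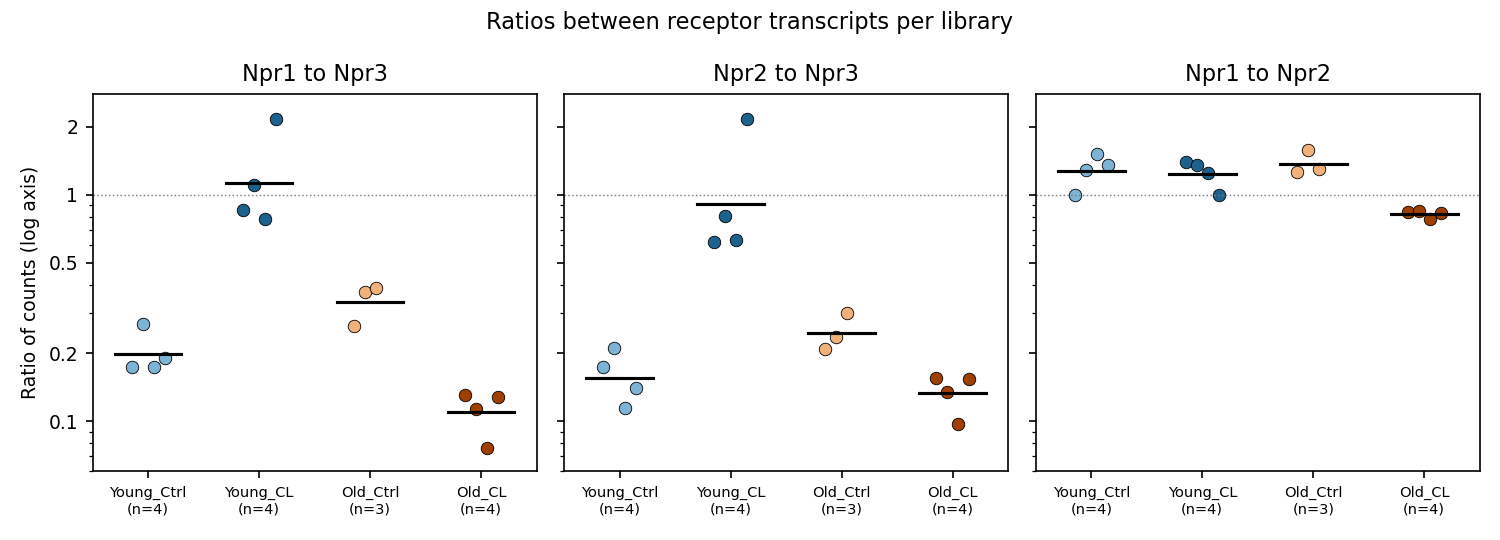
Ratio of counts between the receptors in each library on a log axis, by group (n = 4, 4, 3 and 4), with a line at the geometric mean and a dotted line at 1. The Npr1 to Npr3 ratio runs from 0.785 to 2.16 in Young_CL and from 0.0758 to 0.130 in Old_CL.

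Levels between the genes can be set side by side only per length. Merged exons of Npr1, Npr2 and Npr3 span 4783, 4667 and 9389 bases in GENCODE M21 of GRCm38, which is not the annotation that was counted. On this scale Npr3 averaged 35.1 CPM per kilobase in Young_Ctrl, 6.58 in Young_CL, 33.6 in Old_Ctrl and 81.7 in Old_CL. Npr1 averaged 13.6, 13.5, 22.1 and 17.3 CPM per kilobase in the same order, and Npr2 averaged 11.3, 11.3, 16.5 and 21.5. Npr3 was the highest of the 3 per length in every group but Young_CL, where it was the lowest. Per length, the Npr1 to Npr3 ratio ran from 1.54 to 4.25 in Young_CL and from 0.149 to 0.256 in Old_CL. In that annotation each receptor is overlapped by a noncoding gene on the opposite strand (Gm16048, Gm12473 and Gm5144), none of which is in the table. The strand setting of the counting is not given in the sources used here, so reads of these pairs cannot be told apart.

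Marker levels of several cell types moved with the groups. The 10 adipocyte markers summed to 15383 to 36935 CPM in Young_Ctrl, 33697 to 38930.2 in Young_CL, 29023 to 42575 in Old_Ctrl and 50626 to 60215 in Old_CL. With CL 6 of 10 rose in young mice, where Npr3 was lower and 43.9% of all tested genes were called, and 7 of 10 rose in aged mice, where Npr3 rose and 45.2% were called. Per 1000 CPM of adipocyte markers Npr3 was at 14.8 in Young_Ctrl (11.6 to 18.3), 1.71 in Young_CL (0.816 to 2.51), 9.44 in Old_Ctrl (6.48 to 12.5) and 14.0 in Old_CL (12.0 to 16.2). On this scale the young groups stayed apart and the aged groups overlapped. The aged groups of Npr3 stayed apart per 1000 CPM of endothelial markers (331 to 498 in Old_Ctrl and 668 to 1032 in Old_CL), of smooth muscle and pericyte markers (444 to 713 and 898 to 1115) and of stromal progenitor markers (30.5 to 61.0 and 214 to 297). The part of adipocyte content in the rise of Npr3 in aged mice was not tested further.

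Stromal progenitor markers went another way. The 10 summed to 3984 to 5811 CPM in Young_Ctrl, 2135 to 5792 in Young_CL, 5027 to 11902 in Old_Ctrl and 2976 to 3289 in Old_CL, and 9 of 10 fell with CL in aged mice (against 45.2% of all tested genes called). Young_CL 4, the library with the lowest Npr3, had the lowest sum of these markers. The 10 endothelial markers summed to 516 to 893 CPM in Young_Ctrl, 621 to 831 in Young_CL, 729 to 921 in Old_Ctrl and 947 to 1041 in Old_CL. Per 1000 CPM of these, Npr1 was at 93.1 in Young_Ctrl (91.6 to 95.3), 88.4 in Young_CL (76.2 to 97.9), 128 in Old_Ctrl (124 to 131) and 83.6 in Old_CL (78.2 to 87.0). Old_Ctrl stood above the other groups on this scale. Per 1000 CPM of adipocyte markers the Old_Ctrl values of Npr1 (2.52 to 3.48) overlapped those of Young_Ctrl (2.22 to 3.18). They also overlapped per smooth muscle and pericyte markers (166 to 224 and 146 to 195) and per stromal progenitor markers (7.99 to 22.7 and 11.0 to 18.8). Smooth muscle and pericyte markers summed to 266 to 504, 424 to 560.0, 479 to 690.1 and 735 to 876 CPM in the same order of groups. Npr2 per 1000 CPM of them was at 139.8, 109.5, 142 and 129.6. The part of stromal, endothelial and smooth muscle content in these results was not tested.

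**Figure D5:**
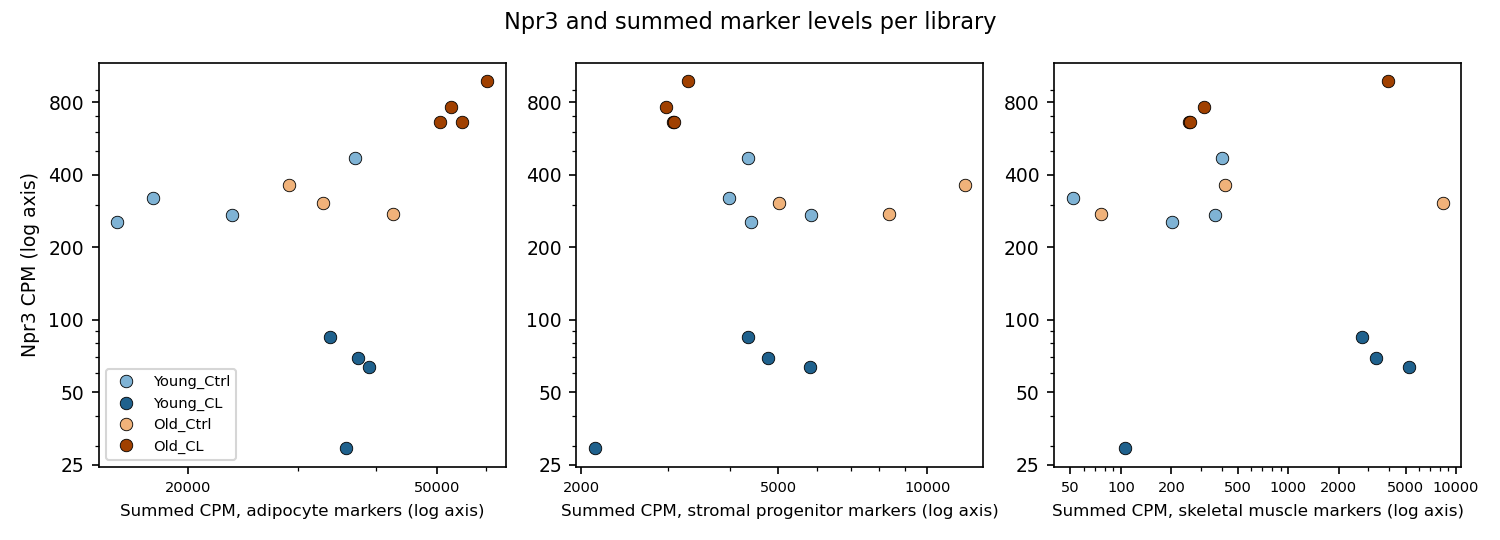
Npr3 level in each of the 15 libraries against the summed level of 10 adipocyte, 10 stromal progenitor and 12 skeletal muscle markers, all in CPM on log axes, coloured by group. Old_CL libraries are highest in Npr3 and in adipocyte markers, while Young_CL libraries have the lowest Npr3 at adipocyte sums of 33697 to 38930.2 CPM; Young_CL 4, at 29.2 CPM of Npr3, is low in muscle and in stromal markers.

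Of the hormones that these receptors bind, little transcript was found in the pad. Nppa, the atrial peptide gene, had 0 to 10 counts per library, 51 in all. Nppb, the brain peptide gene, had 2 counts in all and was at 0 in 13 of 15 libraries, and Nppc, the C-type peptide gene, had 2 counts in 1 library. A library at 0 can still hold a level of up to 0.0538 to 0.497 CPM, the value of 3 counts across these libraries. Ostn, which encodes osteocrin, a peptide that binds the clearance receptor, had 59 counts in all, 40 of them in Old_Ctrl 3, which is rich in muscle transcripts.

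Of 58 genes listed around the receptors, 48 had enough counts to be tested. With CL, 20 rose and 6 fell in young mice (54.2%, against 43.9% of all tested genes), and 15 rose and 9 fell in aged mice (50.0%). With age, 8 rose and 6 fell under vehicle (29.2%), and 15 rose and 9 fell under CL (50.0%). These shares stood near those of all genes. With upper-quartile scaling the young counts were 16 and 9. Without the muscle-rich libraries 10 were called with CL in young mice, 15 in aged mice and 8 for age under CL. The young and aged changes of each gene are given side by side. They share no libraries, but 1 estimate of spread.

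Among the genes that process or break down the peptides, Mme, which encodes the peptidase neprilysin that cleaves natriuretic peptides, rose at both ages. It went from 56.4 to 129 CPM in young mice (edgeR log2 change 1.20, SE 0.14, adjusted p = 8.5e-06) and from 57.5 to 146 CPM in aged mice (1.34, SE 0.16, edgeR adjusted p = 2.2e-05). Furin, a protease that processes peptide precursors, rose by 0.77 in young and 0.34 in aged mice (edgeR adjusted p = 1.2e-05 and 0.013). Ide, the insulin-degrading enzyme gene, rose in young mice by 0.66 (edgeR adjusted p = 0.0048) and was at 0.20 in aged mice (edgeR adjusted p = 0.37). Dpp4, a peptidase gene that is also a stromal progenitor marker, fell by 0.65 in young mice and by 1.71 in aged mice (edgeR adjusted p = 0.046 and 0.00022). In the young comparison Young_CL 4 was far below the rest of its group, at 36.9 CPM against 86.5 to 91.2 CPM. Corin, which encodes the protease that activates the atrial peptide precursor, had 1 to 23 counts per library and was not tested. In all, 3 of 5 tested genes of this list rose and 1 fell in young mice (80.0%, against 43.9% of all tested genes), and 2 rose and 1 fell in aged mice (60.0%, against 45.2%).

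Besides Npr1 and Npr2, cyclic GMP is made by soluble guanylyl cyclase in response to nitric oxide. The endothelial nitric oxide synthase gene Nos3 rose from 41.8 to 103 CPM in young mice and from 46.2 to 145 CPM in aged mice (edgeR log2 changes 1.31 and 1.64, adjusted p = 1.0e-05 and 1.3e-05). The inducible synthase gene Nos2 rose by 0.89 in young mice (edgeR adjusted p = 0.020). The cyclase subunit gene Gucy1a3 was higher in aged mice under CL by 0.67 (edgeR adjusted p = 0.0024), and Gucy1b3 stayed between 8.32 and 8.58 CPM in the group means. In this list 2 of 5 tested genes rose in young mice (40.0%, against 43.9% of all tested genes) and 1 of 5 in aged mice (against 45.2%).

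Phosphodiesterases end the signal. Pde3b, the main phosphodiesterase gene of fat cells and one that cyclic GMP inhibits, rose by 0.74 in young and 0.80 in aged mice (edgeR adjusted p = 0.0026 for both). Pde1a rose by 0.82 and 0.97 (edgeR adjusted p = 0.0035 and 0.0017). Pde2a, a phosphodiesterase gene that cyclic GMP activates, fell in young mice by 0.44 (edgeR adjusted p = 0.0050), was at -0.02 in aged mice, and was higher in aged mice by 0.56 under vehicle and 0.98 under CL (edgeR adjusted p = 0.0042 and 1.4e-05). Pde1b fell by 0.70 in young mice (edgeR adjusted p = 0.00053), and Pde11a and Pde10a fell by 0.98 and 0.50 in aged mice (edgeR adjusted p = 0.0085 and 0.023). Of the 10 tested genes 2 rose and 2 fell at each age (40.0%, against 43.9% of all tested genes in young and 45.2% in aged mice), and 5 were higher with age under CL (50.0%, against 40.0%).

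Among the cyclic GMP effectors, 1 of 5 tested genes fell in young mice (against 43.9% of all tested genes called) and 2 of 5 in aged mice (40.0%, against 45.2%). Vasp, a cytoskeletal substrate of protein kinase G, fell by 0.41 in young and 0.52 in aged mice (edgeR adjusted p = 0.0027 and 0.00088), and was lower with age (log2 differences -0.55 under vehicle and -0.66 under CL, edgeR adjusted p = 0.0022 and 0.00011). Prkg1, the kinase gene of this arm, was between 2.84 and 4.46 CPM in the group means, with log2 changes of 0.23 in young and -0.40 in aged mice (edgeR adjusted p = 0.46 and 0.20). Prkg2 fell in aged mice by 1.07 (edgeR adjusted p = 0.0099). Cnga1, with 2 to 41 counts per library, was lower with age (log2 differences -1.91 under vehicle and -2.19 under CL, edgeR adjusted p = 0.0035 and 0.00086).

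On the arm that the clearance receptor is known to use, inhibitory G proteins and phospholipase C, 3 of 7 rose and 1 fell in young mice (57.1%, against 43.9% of all tested genes), and 3 rose and 3 fell in aged mice (85.7%, against 45.2%). Plcb1 rose from 19.4 to 36.6 CPM in young and from 21.3 to 56.3 CPM in aged mice (edgeR log2 changes 0.92 and 1.38, adjusted p = 0.00034 and 3.6e-05). Plcb2, a form of blood cells, fell by 0.89 and 0.96 (edgeR adjusted p = 0.0014 for both). Plcb3 rose by 0.49 in young and 0.44 in aged mice (edgeR adjusted p = 0.0044 and 0.014). Gnai1 rose by 0.39 and 0.44 (edgeR adjusted p = 0.031 and 0.025), and was higher with age by 0.91 under vehicle and 0.96 under CL (edgeR adjusted p = 0.0011 and 0.00011). The other inhibitory G protein genes of the list, Gnai2 and Gnai3, fell in aged mice (log2 changes -0.29 and -0.30, edgeR adjusted p = 0.033 and 0.024).

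A list of 11 fat cell genes was drawn up around the protein kinase G arm. The activity of the kinase was not measured, and whether it acted on these genes was not tested. In young mice 8 rose and 1 fell (81.8%, against 43.9% of all tested genes), and 7 rose and 1 fell in aged mice (72.7%, against 45.2%). Creb1, a transcription factor gene, was the one that fell at both ages (log2 changes -0.43 and -0.46, edgeR adjusted p = 0.040 and 0.041). Ucp1, the proton carrier of thermogenic fat, rose from 13.0 to 411 CPM in young and from 2.76 to 68.5 CPM in aged mice (edgeR log2 changes 5.04 and 4.54, adjusted p = 8.4e-07 and 2.3e-05). Abhd5, the coactivator gene of the triglyceride lipase, rose by 1.17 at both ages (edgeR adjusted p = 3.3e-05 and 0.00011). Ppargc1a, a coactivator gene of mitochondrial programmes, rose by 1.30 and 1.24 (edgeR adjusted p = 0.00043 and 0.0012). Map2k6, a kinase gene upstream of p38, rose by 0.73 in young mice (edgeR adjusted p = 0.0030), was at 0.18 in aged mice (edgeR adjusted p = 0.46), and was lower with age under CL (edgeR log2 difference -1.51, adjusted p = 1.6e-05). Plin1 and Lipe in this list are also adipocyte markers.

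Of the 48 pathway genes, 1 had a CL change that differed between the ages by the interaction test, which called 7.08% of all tested genes. Wwp1, a ubiquitin ligase gene, rose in young mice by 0.47 (edgeR adjusted p = 0.0036) and was at -0.16 in aged mice (edgeR adjusted p = 0.30), a difference of -0.63 (edgeR adjusted p = 0.032). Under vehicle it was already higher in aged mice, 94.9 against 54.7 CPM (edgeR log2 difference 0.79, adjusted p = 0.00067). The mean was 75.6 CPM in Young_CL and 85.0 CPM in Old_CL. Most Young_CL libraries and no Young_Ctrl library were rich in muscle transcripts, and the part of muscle content was not tested.

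The genes with the pattern most like each receptor were ranked by Pearson correlation of log2 CPM over the 15 libraries, among 10577 candidates, as a description. These correlations carry the group differences, library size and tissue makeup that the genes share. Nearest to Npr3 were Spg20 (r = 0.956), Eepd1 (0.955), Sdccag8 (0.952), Hlcs (0.946) and Rock2 (0.946). After the group means were subtracted these were 0.712, 0.813, 0.433, 0.332 and 0.615. Of the 5, Eepd1 had the closest size of change, from 125 to 62.7 CPM with CL in young mice and from 119.6 to 253 CPM in aged mice.

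Nearest to Npr1 were Vwa1 (r = 0.940), Cygb (0.921), Slc35e4 (0.919), Ctdsp1 (0.918) and Gpr160 (0.915). Cygb, which encodes cytoglobin, a globin of many tissues, was at 66.9, 66.1, 140.4 and 87.4 CPM in Young_Ctrl, Young_CL, Old_Ctrl and Old_CL. Nearest to Npr2 were Cdc42bpb (r = 0.980), Magi1 (0.979), Dctn1 (0.975), Pdxdc1 (0.972) and Tmco3 (0.971), and these stayed at 0.906 or above after the group means were subtracted. With Spearman correlation 2 of the 5 nearest genes of Npr3, 2 of Npr1 and 1 of Npr2 were the same.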

How the data were processed

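The data are 1 table of whole-number gene counts deposited by the authors, with 24015 genes and 15 libraries of polyA RNA. STAR, featureCounts, Subread and the mm9 build are named in the submitters' processing notes. Versions, strand and handling of shared reads are not given in the sources used here. Total counts per library were 6115542 to 51577001, and 3 counts correspond to 0.0538 to 0.497 CPM. Such floors cover counting error only.

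From these counts, genes were kept with filterByExpr by group and scaled by TMM, and 15288 were tested with edgeR 4.0.16 (quasi-likelihood test) under R 4.3.3. The fit was robust, with 1 mean per group and all 15 libraries. A call needed an adjusted p under 0.05 (Benjamini-Hochberg, over all tested genes). SE was obtained from the log2 change and F, and CPM use the TMM library sizes. Ratios of counts were compared by exact two-sided permutation tests of the mean log2 ratio. The procedure was tested on simulated counts.

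The receptors, 8 pathway lists of 58 genes and the marker lists were chosen with earlier results of these data known. Named are the receptors, up to 4 called genes per list and comparison with the smallest p, list genes near 0 counts, and the 5 genes most correlated with each receptor (log2 CPM with a prior count of 2, average of at least 3, unnamed gene models left out). A few others are named as examples of a level or a change, after their values were seen. The alternatives tried were upper-quartile and RLE factors, limma 3.58.1 (voom), DESeq2 1.42.0, no or a stricter filter, 2 groups alone, a replicate block, each library left out, 5 muscle-rich libraries left out, and Old_CL 1, 2 and 4 summed. Promoter sequences and motif counts come from the RefSeq table of GRCm38.p6.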

Additional observations from a re-analysis of the deposited data

Results flagged for a closer look

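Npr3 had a CL change of -2.42 in young and 1.28 in aged mice, in log2. The difference of 3.70 was flagged because the treatments did not overlap at either age, with CL lower in young and higher in aged mice. The same held for 110 of 15288 tested genes (0.720%). The difference contains the young comparison that chose the genes, so it was not tested and nothing is read from the flag. Wwp1 passed the interaction test, with a difference of -0.63 (edgeR adjusted p = 0.032). It was already higher in aged mice under vehicle (edgeR log2 difference 0.79, adjusted p = 0.00067).

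In 123 groups of 4 values, 11 held a library far from the other 3 by Dixon's rule, which chance gives in about 1 of 20 groups. Old_CL 3 was low for Npr1 (74.1 CPM, others 84.8 to 86.5) and for Npr2 (95.1 CPM, others 102 to 103). It was also low for Plcb2 (13.7 CPM, others 21.2 to 22.5). Young_Ctrl 2 had an Npr1 to Npr3 ratio of 0.270 (others 0.174 to 0.190) and was high for Pde9a (3.87 CPM, others 1.81 to 2.10). Young_CL 4 had an Npr2 to Npr3 ratio of 2.17 (others 0.616 to 0.809) and was low for Dpp4 (36.9 CPM, others 86.5 to 91.2). Young_Ctrl 1 was high for Ucp1 (26.4 CPM, others 7.74 to 9.11) and Plcb1 (25.7 CPM, others 16.7 to 18.1). Young_CL 1 was low for Pde3a (1.16 CPM, others 1.58 to 1.66), and Old_CL 2 was high for Ppp5c (79.0 CPM, others 76.2 to 76.5).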

How the results depend on the processing

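Over 35 results and 560 alternatives, 523 values kept their side of the threshold and their size class, 13 lost a call, 7 gained one, 17 moved and 0 reversed. Changes of sign in values near 0 without a call counted as kept. An example is Npr3 with age under vehicle, which was at -0.06 in the main fit and at 0.16 without Young_Ctrl 1. The rise of Npr3 with CL in aged mice kept its call in all 17 alternatives (1.12 to 1.41, edgeR, voom or DESeq2 adjusted p up to 0.014). These alternatives fit the same libraries again, and the p-values of Npr3 describe the fit only. Scaling by adipocyte markers, on which the aged groups overlapped, was not among them. The age difference of Npr3 under CL, given without a test, ran from 3.40 to 4.54.

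Without the 5 muscle-rich libraries, which leaves 1 Young_CL library assumed to vary like the others, Npr3 was at -3.49 in young mice and its age by CL difference at 4.62. The young log2 ratio differences were then 3.45 for Npr1 to Npr3, -0.36 for Npr1 to Npr2 and 3.80 for Npr2 to Npr3. Npr1 (0.41) and Npr2 (0.65) lost their calls for age under CL. Pathway genes called were then 10 for young CL, 15 for aged CL and 8 for age under CL, and all genes called were 2974 for young CL and 1869 for age under CL. Fewer libraries enter these fits.

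Npr1 with CL in aged mice passed with RLE factors (-0.38, edgeR adjusted p = 0.038), upper-quartile factors (-0.43, edgeR adjusted p = 0.021), DESeq2 (-0.38, adjusted p = 0.028) and the 2 groups alone (-0.39, edgeR adjusted p = 0.0051), as did Npr2 with the 2 groups alone (0.35). Npr2 with age under vehicle passed with limma-voom (0.67, adjusted p = 0.034), and leaving out 1 library gave 0.40 to 0.84. Npr1 with age under CL did not pass with RLE (0.32) or upper-quartile factors (0.33) or with Old_CL 1, 2 and 4 summed (0.31), and leaving out 1 library gave 0.32 to 0.41. The cause was not tested. Age under vehicle gave 8 pathway genes and 1877 genes with the 2 groups alone. Leaving out 1 library gave 7 to 19 pathway genes and 1739 to 5851 genes, 1739 without Old_Ctrl 4, 2450 without Young_Ctrl 3 and 2606 without Young_Ctrl 4. Age under CL gave 3818 genes with Old_CL summed.

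Replicate numbers were not used to pair samples in the main fit. The correlation of deviations was over 0.1 in only some pairs (0.0432, 0.332 and 0.204 in aged mice). The pair at 0.332 was replicate 3, of which both aged libraries are rich in muscle transcripts. With so few pairs this cannot show whether the numbers pair the samples. With the replicate block Npr1 with age under CL was at 0.36 (edgeR adjusted p = 0.061), Npr3 with CL in aged mice at 1.29 (edgeR adjusted p = 0.0018), and no other receptor call changed. Other scalings moved the median of all genes by at most 0.09 in log2 in absolute size.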

Other observations

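Immune and vascular markers around the receptors also differed. T cell markers fell with CL in 10 of 10 cases in young mice (median log2 change -0.90) and in 10 of 10 in aged mice (-1.13), in comparisons that called 43.9% and 45.2% of all tested genes. B cell and lymph node markers fell in 9 of 9 tested and in 7 of 9. Macrophage markers fell with CL in 6 of 10 cases in aged mice, and were higher with age under vehicle in 8 of 10, where 27.2% of all tested genes were called. Smooth muscle and pericyte markers rose in 5 of 10 in aged mice, and 1 rose and 2 fell in young mice. Epithelial markers of the mammary gland summed to 2.32 to 19.7 CPM. Whether any of these bears on the receptor levels was not tested.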
